A study of Homo sapiens with 2 samples.

Results

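The AP-1 transcription factor genes analysed here were FOS, FOSB, FOSL1 and FOSL2 of the FOS family, JUN, JUNB and JUND of the JUN family, and BATF, BATF3 and ATF3, which code for proteins that pair with JUN family members. They were a list of 10 genes defined by name and not by a threshold on these data, out of 19794 protein-coding genes on chromosomes 1 to 22, X and Y. For each gene, the peaks of NRF-1 (nuclear respiratory factor 1) at its promoter and within 50 kb of the gene were collected from the deposited peak lists, where a promoter reached 1 kb up and down from each start of a protein-coding transcript. NRF-1 had been immunoprecipitated from chromatin of U251 cells, an established human glioblastoma line, that carried either a non-targeting siRNA (siControl) or an siRNA against AATF (siAATF), a transcriptional cofactor whose effect on NRF-1 was the question of the study. A transfected siRNA lowers a messenger RNA for a limited time and need not remove the protein, and peak lists do not measure how much AATF was left. Both groups were the same line, and the series text names a different line, U138, whereas the sample labels, followed here, give U251. There was 1 peak list per group and no replicate, so no test between the groups was made and every difference given is between these lists only.

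AP-1 is a dimer of basic leucine zipper (bZIP) proteins. JUN proteins can pair with each other or with FOS proteins, FOS proteins need a partner to bind DNA, and the dimers read the word TGANTCA. FOS, FOSB, JUN, JUNB and ATF3 are immediate early genes, switched on within minutes by growth factors or stress through MAP kinases that act on factors already bound at their promoters, among them serum response factor at a CArG box and CREB or ATF proteins at the cyclic AMP response element (CRE) TGACGTCA. JUND is expressed more evenly, FOSL1 and FOSL2 follow later and have been linked to the mesenchymal state of glioblastoma, and BATF and BATF3 are best known from lymphocytes and dendritic cells. NRF-1 is known for promoters of genes for mitochondrial proteins and many other housekeeping genes, where it binds the palindrome GCGCATGCGC and close relatives of it in CpG-rich DNA.

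Each peak carried a fold enrichment over the local background of its own library and a −log10 q, which grows with the certainty of the call. Fold enrichment depends on the library it comes from, so peaks were set side by side by percentile rank within each list, with 0 as the weakest peak and 100 as the strongest. The siControl list held 18014 peaks with −log10 q from 1.03 to 116, and the siAATF list held 18454 peaks with −log10 q from 1.02 to 104. Of these, 11695 and 11648 lay at a coding promoter. Read depth was unknown. Positions are 1-based on hg19, and distances run from the first base of the canonical coding transcript in the direction of transcription, negative upstream.

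A promoter peak was present for 8 of the 10 AP-1 genes in the siControl list and for the same 8 in the siAATF list, where 61.1% and 60.7% of all coding genes had such a peak. The genes without one were JUNB and BATF in both lists. No AP-1 gene had a promoter peak in 1 list only, as did 2.79% of coding genes. With the stricter requirement of a −log10 q of at least 5, FOS dropped out and 7 of 10 remained in each list, beside 51.5% of coding genes in each. The 8 genes carried 8 promoter peaks in siControl and 9 in siAATF. All 17 overlapped a promoter peak of the other list, as 96.1% of siControl and 96.5% of siAATF promoter peaks overlapped some peak of the other list. Their best promoter peaks had a median −log10 q of 10.3 (siControl) and 13.0 (siAATF), below the median of 18.1 and 17.6 over all coding genes with a promoter peak.

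**Figure D1:**
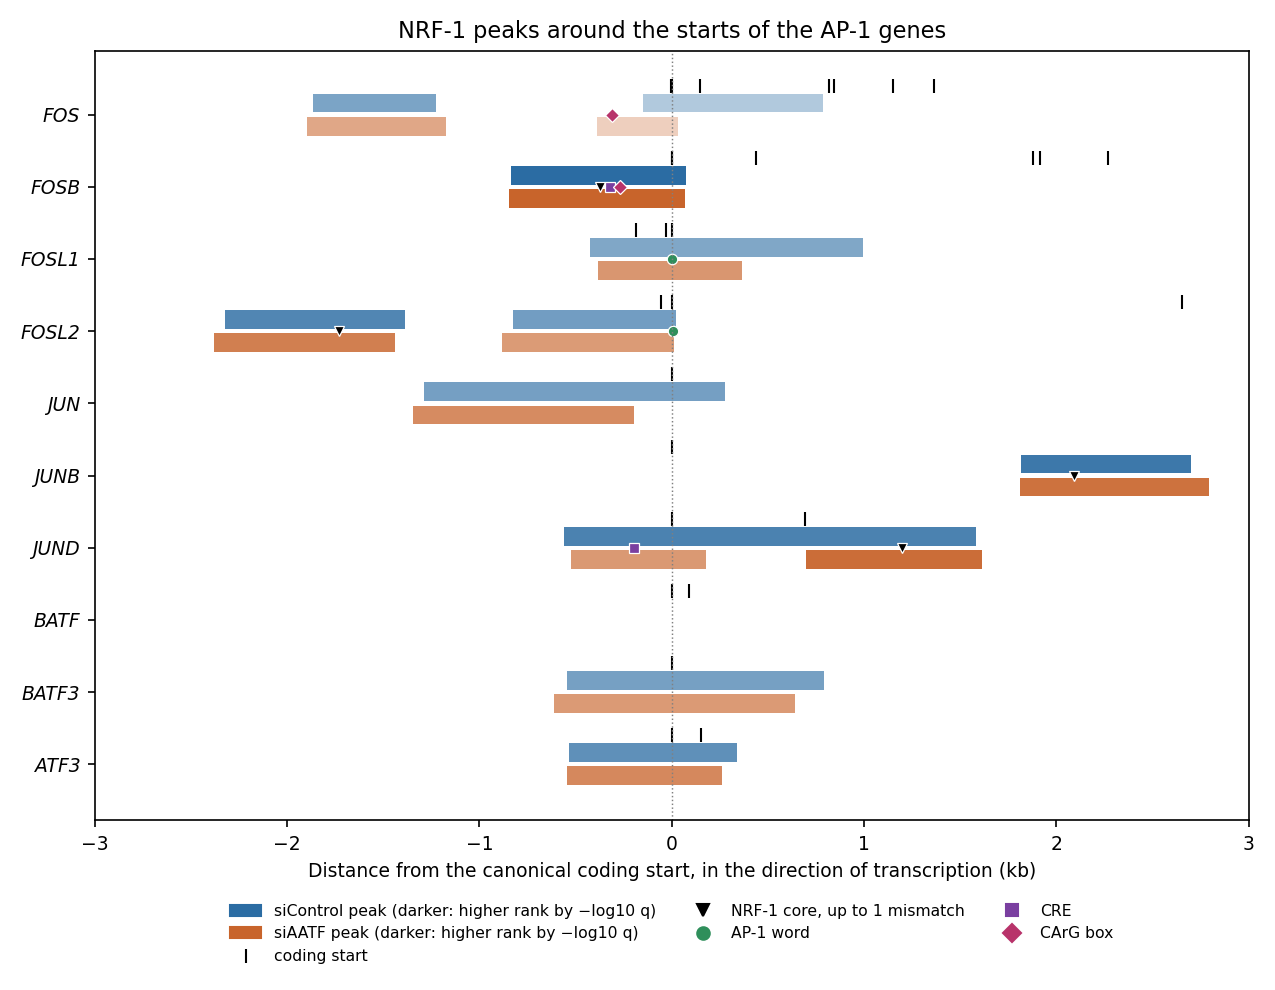
NRF-1 peaks (bars, siControl above siAATF, darker for a higher rank by −log10 q) around the canonical coding start of each AP-1 gene, in kb along the direction of transcription, with coding starts as ticks and searched sequence words as symbols. FOSB carries the darkest bars, JUNB has bars only past its 3′ end, BATF has none in view, and the single siControl bar of JUND is replaced by 2 bars in siAATF.

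Among the FOS family, FOSB, which codes for a FOS protein induced in neurons and many other cells, had by far the strongest promoter peak. In siControl it lay at chr19:45970417-45971329 (913 bp) with a fold enrichment of 8.84 and a −log10 q of 102, a value that 35 of the 18014 peaks exceeded. In siAATF it lay at chr19:45970406-45971321 (916 bp) with a fold enrichment of 8.33 and a −log10 q of 94.6, which 17 of 18454 peaks exceeded. Its rank by fold enrichment was 89.9 and 89.7, and its rank by −log10 q was 99.8 and 99.9. The peak reached from −837 to 75 bp in siControl, and its midpoint fell into an outlying transcript of ERCC1, the neighbouring DNA repair gene, outside canonical exons. It was the AP-1 promoter peak whose position, width and rank differed least between the lists.

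The FOSB peak was the only AP-1 promoter peak where an NRF-1 core, a CRE and a CArG box stood together, in this order along the direction of transcription and upstream of the start. The core differed from the palindrome by T6G, counted from 1 at its 5′ end with the palindrome's base given first. It lay 6.5 bp from the midpoint of the siControl peak and 16 bp from that of the siAATF peak. The same word was in 1162 siControl peaks and 1156 siAATF peaks, with a median rank by −log10 q of 91.7 and 91.9, and in 37% and 36.9% of the tenth of each list with the highest −log10 q.

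FOS, the founding member of the family, lay at the other end of the order. Its siControl peak at chr14:75745381-75746318 (938 bp) had a fold enrichment of 3.15 and a −log10 q of 2.24. Its siAATF peak at chr14:75745142-75745564 (423 bp) had a fold enrichment of 2.82 and a −log10 q of 1.28, and 131 of the 18454 siAATF peaks had a lower −log10 q. The ranks by fold enrichment were 2.49 and 1.25, and those by −log10 q were 9.39 and 0.710. The peaks covered the canonical start in both lists but shared only 184 bp, since the siControl peak ran from −150 to 787 bp into the gene and the siAATF peak from −389 to 33 bp. The overlap was thus too short for a reciprocal overlap of 50%. A CArG box of FOS centred at −309.5 bp, at the position where serum response factor is known to act on this gene, was inside the siAATF peak and outside the siControl peak. It is shown with 20 bases on each side (chr14:75745197-75745246, plus strand, the box in capitals).
FOS: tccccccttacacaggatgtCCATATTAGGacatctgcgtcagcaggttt

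FOSL1 and FOSL2 code for the FOS-related proteins FRA-1 and FRA-2. For FOSL1 the siControl peak at chr11:65666866-65668286 (1421 bp) had a fold enrichment of 5.02 and a −log10 q of 7.42, and the siAATF peak at chr11:65667493-65668241 (749 bp), wholly inside it, had 5.89 and 10.5. Its rank by fold enrichment was 37.6 in siControl and 55.3 in siAATF, and its rank by −log10 q was 42.7 and 53.5. For FOSL2 the siControl peak at chr2:28614897-28615748 (852 bp) had a fold enrichment of 3.26 and a −log10 q of 10.6, and the siAATF peak at chr2:28614844-28615738 (895 bp) had 3.17 and 8.92. The FOSL2 peak thus ranked low by fold enrichment, at 3.53 and 2.95, and in the middle by −log10 q, at 51.8 and 49.2. Both promoters carried the AP-1 word itself at the canonical start, centred 2 bp past it in FOSL1 and 7 bp past it in FOSL2, in the 5′ UTR. These stretches are shown because the genes code for subunits of the factor that reads this word (FOSL1, chr11:65667844-65667870, minus strand, and FOSL2, chr2:28615719-28615745, plus strand, the word in capitals).
FOSL1: acggcgcgggTGAGTCAgaacccagca
FOSL2: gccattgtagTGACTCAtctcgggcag
Neither FOSL1 nor FOSL2 held an NRF-1 core with up to 1 mismatch in its promoter peak. FOSL2 had a second, stronger peak outside the 1 kb promoter, at chr2:28613402-28614338 in siControl and chr2:28613347-28614284 in siAATF, with the midpoint at −1.86 and −1.91 kb in the antisense lncRNA gene FOSL2-AS1. That peak ranked 74.1 and 74.6 by −log10 q and did hold a core, with the difference T6C, centred at −1731.5 bp (chr2:28613969-28614018, plus strand).
FOSL2 upstream: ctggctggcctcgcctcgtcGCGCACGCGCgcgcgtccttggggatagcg

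In the JUN family, JUND had the promoter peak with the highest −log10 q and the clearest change in peak shape. By fold enrichment its siControl peak stood below that of JUN (4.66 beside 4.88). JUND is a gene of 1 exon that codes for the most evenly expressed JUN protein. In siControl a single peak at chr19:18390849-18392994, 2146 bp wide, spanned the start and most of the gene, with a fold enrichment of 4.66, a −log10 q of 35.3, a rank by fold enrichment of 31.0 and a rank by −log10 q of 79.0. In siAATF there were 2 peaks in its place. The stronger, at chr19:18390821-18391732 (912 bp), lay within the gene from 700 to 1611 bp, with a fold enrichment of 6.31, a −log10 q of 59.5 and ranks of 61.7 and 91.3. The weaker, at chr19:18392252-18392957 (706 bp), covered the start from −525 to 180 bp, with a fold enrichment of 2.91, a −log10 q of 9.58 and ranks of 1.53 and 51.1. JUND was the only AP-1 gene of the 10 that went from 1 promoter peak in siControl to 2 or more in siAATF, as 0.93% of coding genes did, while 0.823% went the other way. It was 1 of 10 AP-1 genes with 2 or more promoter peaks in siAATF, beside 5.88% of coding genes, and in siControl 0 of 10 had as many, beside 5.78%.

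The only exact NRF-1 core in a peak within 50 kb of an AP-1 gene was in JUND. It lay at chr19:18391228-18391237 in the 3′ UTR, just past the coding sequence that ends at position 18391254 on the minus strand, 1199.5 bp from the start. Its distance to the peak midpoint was 689 bp in siControl and 44 bp for the stronger siAATF peak. A CRE stood upstream, centred at −196.5 bp, 707 bp from the siControl midpoint and 24 bp from that of the weaker siAATF peak. Both are shown, since each siAATF peak of JUND was centred near a different word (core, chr19:18391218-18391247, and CRE, chr19:18392605-18392652, both minus strand, words in capitals).
JUND core: cgcgcgcgggGCGCATGCGCggccaccctc
JUND CRE: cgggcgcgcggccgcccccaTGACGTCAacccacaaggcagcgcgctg

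JUN, the gene of the founding JUN protein, had a peak at chr1:59249440-59251005 (1566 bp) in siControl with a fold enrichment of 4.88 and a −log10 q of 10.02. In siAATF the peak lay at chr1:59249913-59251063 (1151 bp) with a fold enrichment of 6.23 and a −log10 q of 15.5. Its rank by fold enrichment was 35.1 in siControl and 60.4 in siAATF, and by −log10 q it was 50.4 and 63.4. The siControl peak covered the start and reached 279 bp into the gene, whereas the siAATF peak ended at −194 bp, upstream of it. The midpoint of both fell into the divergent lncRNA gene LINC01135. No NRF-1 core with up to 1 mismatch was found in either JUN peak, and no AP-1 word, CRE or CArG box without a mismatch. GC boxes (GGGCGG, the word read by SP1) were found 9 and 7 times, a word that 91.2% of siControl and 91.1% of siAATF promoter peaks hold at least once. The JUN promoter, taken as the 250 bases before and 50 after the canonical start, held 5.33 CpG per 100 bases, at percentile 34.9 of coding genes, against 16.3 and percentile 97.9 for JUND.

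JUNB had no promoter peak, but a strong peak began at its 3′ end, 1818 bp from the start in siControl and 1813 bp in siAATF. It lay at chr19:12904118-12904999 with a fold enrichment of 6.87 and a −log10 q of 58.1 in siControl, and at chr19:12904113-12905091 with 6.02 and 48.8 in siAATF. With ranks by −log10 q of 88.3 and 86.8, it stood above the promoter peaks of every AP-1 gene other than FOSB and, in siAATF, JUND. It held the core with T6G, the same 10 bases as in FOSB, 2091.5 bp from the start and past the end of the annotated gene (chr19:12904367-12904416, plus strand).
JUNB downstream: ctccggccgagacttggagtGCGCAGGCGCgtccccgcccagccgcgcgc
The JUNB promoter itself was rich in CpG, with 9.67 per 100 bases, like that of FOSL2.

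BATF also lacked a promoter peak, and its promoter was the poorest in CpG of the 10, with 2.33 per 100 bases. The nearest peak began 38226 bp (siControl) and 38270 bp (siAATF) past its start, 13.7 kb beyond its end, at chr14:76027038-76027705 in siControl and chr14:76027082-76027675 in siAATF. It was well enriched, with fold enrichments of 8.47 and 8.44, ranks by fold enrichment of 86.0 and 90.9 and ranks by −log10 q of 69.1 and 68.0. Its core had the difference T6A and lay 39 and 32 bp from the midpoints, in sequence that is otherwise poor in CpG (chr14:76027386-76027435, plus strand).
BATF downstream: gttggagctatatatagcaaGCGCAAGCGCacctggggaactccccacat

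BATF3, whose protein is required for a class of dendritic cells, had a promoter peak of medium rank that was alike in both lists. It lay at chr1:212872388-212873727 (1340 bp) with a fold enrichment of 4.85 and a −log10 q of 9.55 in siControl, and at chr1:212872541-212873794 (1254 bp) with 4.80 and 9.27 in siAATF. Its rank by fold enrichment was 34.5 and 36.2, and no core, AP-1 word, CRE or CArG box was found in it. ATF3, a gene induced by many kinds of stress, had its peak at chr1:212781569-212782440 (872 bp) with a fold enrichment of 6.84 and a −log10 q of 17.7 in siControl, and at chr1:212781559-212782364 (806 bp) with 6.96 and 17.9 in siAATF. Its rank by fold enrichment was 64.6 and 71.4, and by −log10 q it was 64.7 and 66.6. The ATF3 peak covered the canonical start and another start just downstream, while the 3 other coding starts of this gene, at 212738676, 212788364 and 212788520, had no peak within 1 kb in either list.

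**Figure D2:**
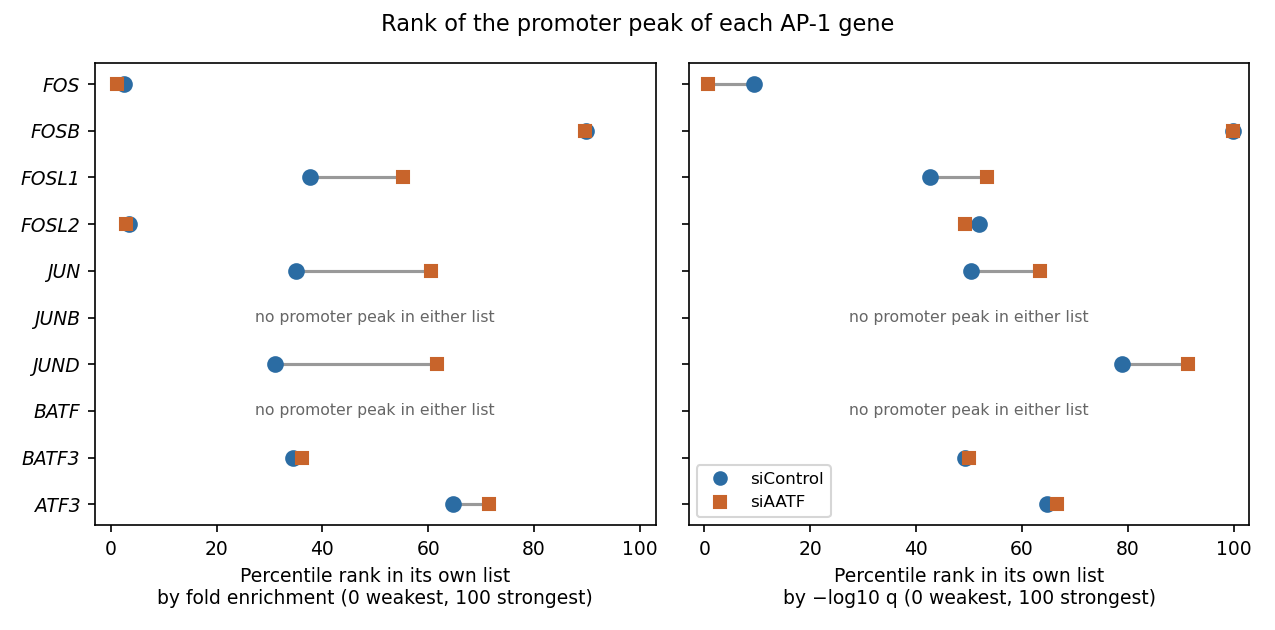
Percentile rank of the promoter peak of each AP-1 gene in the siControl list (circles) and the siAATF list (squares), by fold enrichment on the left and by −log10 q on the right (0 weakest, 100 strongest). FOSB stays near 90 and 100, FOS stays under 10, and the lines of FOSL1, JUN and JUND are the longest, running to a higher rank in siAATF.

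The order of the AP-1 promoters by −log10 q in siControl was FOSB, JUND, ATF3, FOSL2, JUN, BATF3, FOSL1 and FOS, and in siAATF it was FOSB, JUND, ATF3, JUN, FOSL1, BATF3, FOSL2 and FOS. FOSB, JUND, ATF3 and FOS held their places. The middle 4 had −log10 q between 7.42 and 10.6 in siControl and between 8.92 and 15.5 in siAATF, and with no replicate their order among themselves had no spread to be read against.

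The change in rank from siControl to siAATF was described next beside that of all coding genes, as a difference between these lists only. By fold enrichment, 5 of the 8 genes ranked higher in siAATF and 3 ranked lower, with a median of 4.25 points. Of the 11774 coding genes with a promoter peak in both lists, 6032 ranked higher and 5742 lower, with a median of 0.18 points. By −log10 q, 6 AP-1 genes ranked higher and 2 lower, with a median of 1.40 points. Over the same 11774 coding genes, 6545 ranked higher and 5229 lower, with a median of 0.46 points. The 3 largest differences by fold enrichment were those of JUND with 30.7 points, JUN with 25.3 points and FOSL1 with 17.6 points. As signed changes they were above those of 99.2%, 98.2% and 95% of coding genes, where every gene that fell, however far, counts as below. By −log10 q they were 12.4, 13.0 and 10.8 points. A change of more than 20 points by fold enrichment was seen for 2 of 8 AP-1 genes, beside 6.63% of coding genes, and both were rises, beside 3.7% of coding genes that rose as far. In the same way, 3 of 8 rose by more than 10 points by −log10 q, beside 7.21%. The limits of 20 and 10 points were not named in the plan, and JUND counts as a rise only by the stronger of its siAATF peaks. The other differences by fold enrichment were 6.80 points for ATF3, 1.70 for BATF3, −0.17 for FOSB, −0.58 for FOSL2 and −1.24 for FOS.

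**Figure D3:**
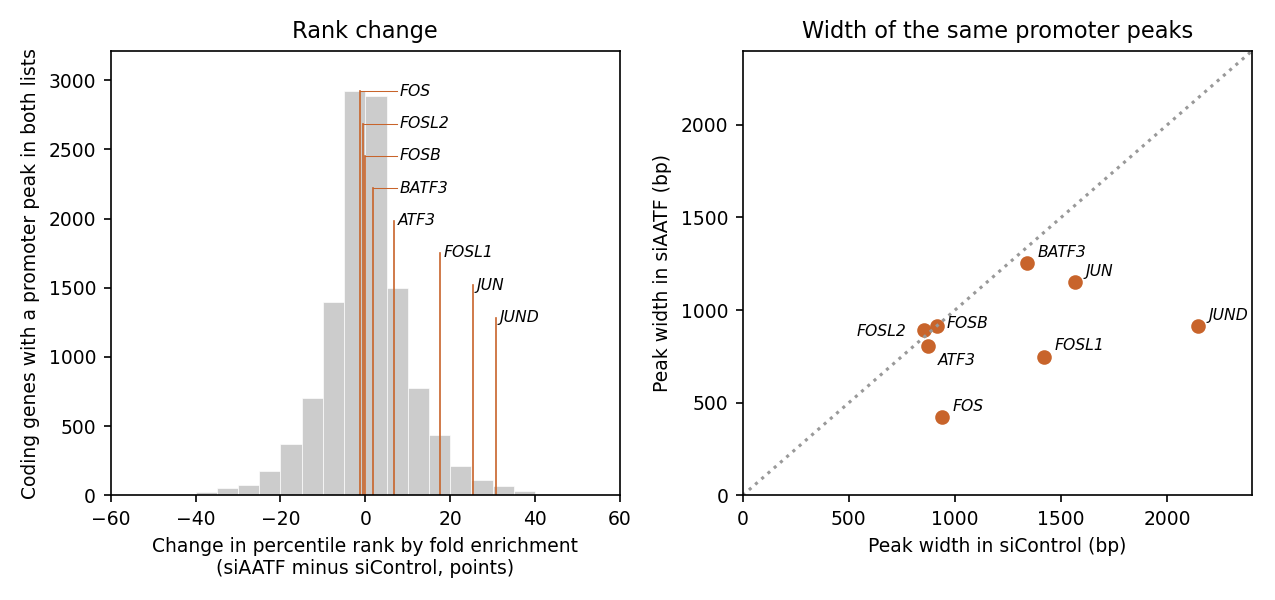
Left, change in percentile rank by fold enrichment (siAATF minus siControl, in points) of the 8 AP-1 promoter peaks (lines) over the histogram of 11774 coding genes with a promoter peak in both lists. Right, width in bp of the same peaks in the 2 lists, where FOS, FOSL1, JUN and JUND lie well under the dotted line of equal width. JUND is shown by the stronger of its 2 siAATF peaks.

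The 3 promoter peaks whose rank rose most were also much narrower in siAATF. JUND went from 2146 bp to 912 bp, the width of the stronger of the 2 siAATF peaks in its place (the weaker had 706 bp). FOSL1 went from 1421 to 749 bp, JUN from 1566 to 1151 bp, and FOS, whose rank did not rise, from 938 to 423 bp. These 4 of 8 were at least 25% narrower in siAATF, a limit chosen after the widths had been seen, beside 6.0% of coding genes that were narrower in siAATF and 6.3% that were narrower in siControl by as much. Over all coding genes, a rise of more than 20 points was seen for 20.4% of those with a peak at least 25% narrower in siAATF and for 2.64% of the others. The part of peak width in the rank changes of JUND, FOSL1 and JUN was not tested. For JUND the direction also depended on which siAATF peak was taken, since the weaker peak at the start gave −29.5 points and the median over the 8 genes was then 0.77 points.

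Sequence words were searched on both strands of every peak, and a match describes the sequence only. The AP-1 word, the CRE, the CArG box and the GC box were searched without a mismatch, so variants of them were not found. The AP-1 word and the CRE cannot match the same bases. The NRF-1 core with up to 1 mismatch was in 2 of 8 AP-1 promoter peaks in siControl and 2 of 9 in siAATF, those of FOSB and JUND, beside 21.5% of all coding promoter peaks in each list. These were also the AP-1 promoter peaks with the highest −log10 q. The AP-1 word was in 2 of 8 and 2 of 9 (FOSL1 and FOSL2), beside 8.84% and 9.66% of coding promoter peaks, the CRE in 2 of 8 and 2 of 9 (FOSB and JUND), beside 4.23% and 4.28%, and the CArG box in 1 of 8 (FOSB) and 2 of 9 (FOSB and FOS), beside 2.06% and 2.12%. The AP-1 promoter peaks were wider than most in siControl, with a median of 1139 bp beside 832 bp, and close to the rest in siAATF, with 895 bp beside 844 bp. Over the whole lists, the core was in 84.4% and 83.8% of the tenth with the highest −log10 q and in 6.98% and 6.61% of promoter peaks with a rank by −log10 q between 40 and 80, the range that held most AP-1 promoter peaks without a core. In the 300 bases around the canonical start, 0 of 10 AP-1 genes had the core, beside 10.6% of coding genes. The AP-1 word was in 2 of these 10 windows, those of FOSL1 and FOSL2, beside 5.44% of coding genes, and the CRE was in that of JUND alone, beside 2.71%. A CArG box was in 0 of the 10 windows, beside 1.21% of coding genes, as those of FOS and FOSB lay farther upstream.

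Around the genes, 47 distinct siControl peaks and 53 distinct siAATF peaks lay within 50 kb of at least 1 AP-1 gene, counting the promoter peaks. All 10 genes had such a peak, as 82.0% of coding genes had in siControl and 81.8% in siAATF. Of the 47, 8 were at an AP-1 promoter, 19 at the promoter of another coding gene and 20 away from coding promoters, and of the 53 these numbers were 9, 19 and 25. FOSB had the most peaks, 12 in each list, followed by JUNB with 9 and 10, and the median coding gene had 2 in each list. FOSB and JUNB lie on gene-dense stretches of chromosome 19, and 6 of the 12 FOSB peaks were at promoters of ERCC1, PPM1N with RTN2, and VASP. The strongest of those, at a start of ERCC1 at chr19:45953781-45954621 in siControl, ranked 92.6 by −log10 q in siControl and 94.1 in siAATF. Around JUND the strongest neighbour was the promoter peak of LSM4, with 90.9 and 92.6.

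**Figure D4:**
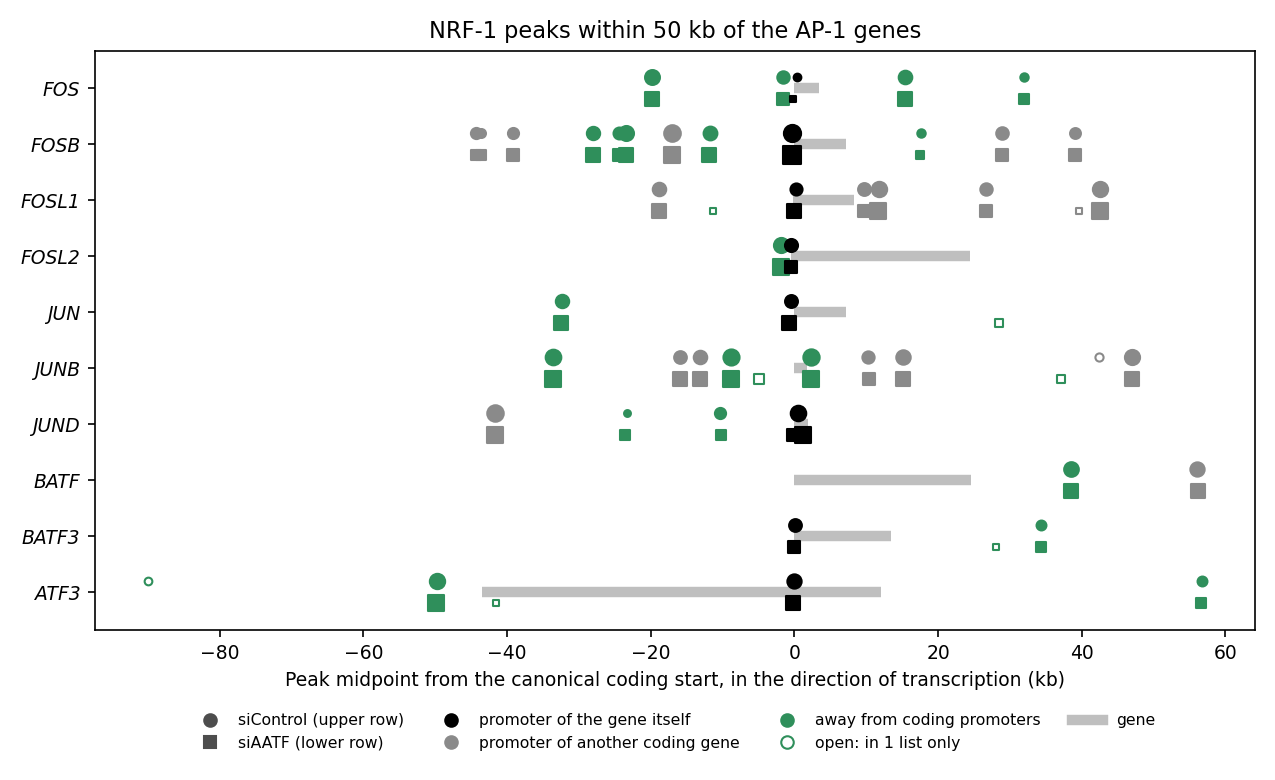
Midpoints of NRF-1 peaks within 50 kb of each AP-1 gene, in kb from the canonical coding start along the direction of transcription (circles above, siControl, and squares below, siAATF, larger for a higher rank by −log10 q), coloured by class and open where the peak is in 1 list only. FOSB and JUNB have the densest rows, and the 9 open symbols (2 siControl and 7 siAATF peaks) are among the smaller ones.

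Of these peaks, 45 of 47 in siControl (95.7%) and 46 of 53 in siAATF (86.8%) were shared with the other list, beside 88.6% and 86.6% of all peaks. Of those away from coding promoters, 19 of 20 and 19 of 25 were shared, beside 74.7% and 69.5%. Their ranks by fold enrichment differed between the lists by −10.2 to 18.8 points over the 19 shared pairs, with a median of 0.21. Of the 19, 11 ranked higher in siAATF and 8 lower, beside 53.8% higher among all such pairs. None of the 19 differed by more than 20 points, as 16.6% of all such pairs did.

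Several of the shared distal peaks ranked high by fold enrichment. The highest fold enrichment near any AP-1 gene belonged to a peak at −49.8 kb of ATF3, 6.10 kb upstream of the most distant ATF3 start, in the noncoding gene RP11-61J19.4. It lay at chr1:212732012-212732574 with a fold enrichment of 10.5 in siControl and at chr1:212731976-212732579 with 10.1 in siAATF, with ranks of 99.0 and 99.3 by fold enrichment and of 76.5 and 79.7 by −log10 q. It held no core with up to 1 mismatch but an AP-1 word and a CRE close to each other, shown here because dimers that contain ATF3 can read both words (chr1:212732359-212732423, plus strand, both words in capitals).
ATF3 distal: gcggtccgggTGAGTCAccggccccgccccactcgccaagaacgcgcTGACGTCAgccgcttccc
A peak at −19.8 kb of FOS, at chr14:75725411-75726087 in siControl, ranked 95.2 and 95.4 by fold enrichment, far above the FOS promoter peak, and 72.0 and 70.7 by −log10 q. Another, at 15.4 kb of FOS, held a second CArG box, CCATATTTGG, and ranked 68.4 and 68.5 by fold enrichment. At JUN a peak at −32.4 kb ranked 77.1 in siControl and 94.5 in siAATF by fold enrichment, and 55.2 and 64.6 by −log10 q. At JUNB a peak at −33.6 kb in the coding sequence of BEST2 ranked 86.3 and 94.7 by fold enrichment, and 80.3 in each list by −log10 q. It held a core with G3T. That word was in 0.723% (siControl) and 0.869% (siAATF) of the tenth with the highest −log10 q, beside 37% and 36.9% for T6G.

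Peaks in 1 list only were weak. Near AP-1 genes there were 2 in siControl, at the MAST1 and RTBDN promoters downstream of JUNB (chr19:12944545-12944832) and upstream of ATF3 (chr1:212691908-212692216), with ranks by fold enrichment of 1.19 and 12.3. There were 7 in siAATF, with ranks by fold enrichment from 0.0921 to 20.4 and a median width of 294 bp. They were at the CFL1 and MUS81 promoters downstream of FOSL1, upstream of FOSL1, downstream of JUN and BATF3, on either side of JUNB and within the longest transcripts of ATF3. The AP-1 word was in 3 of these 7, those near JUN, BATF3 and ATF3, and the NRF-1 core with up to 1 mismatch in 0 of 7, a core that 0.972% of siAATF peaks away from coding promoters and in that list only held. Of the 6 that lay away from coding promoters 3 held the AP-1 word, and over the whole lists it was in 35.6% of 2057 siAATF peaks away from coding promoters that were in that list only, with a median width of 284 bp. It was in 16.7% of 1568 such siControl peaks, with a median width of 266 bp, and in 27.0% and 28.4% of the shared peaks away from coding promoters. Over all peaks away from coding promoters within 50 kb of an AP-1 gene, the AP-1 word was in 6 of 20 (30%) in siControl and 8 of 25 (32%) in siAATF. Among all peaks away from coding promoters, it was in 24.4% in siControl and 30.6% in siAATF. At −23.3 kb of JUND, a siControl peak held the word while its narrower siAATF counterpart did not. The 3 sites in siAATF peaks without a siControl counterpart are shown with the word in capitals (JUN, chr1:59221170-59221206, minus strand, BATF3, chr1:212845142-212845178, minus strand, and ATF3, chr1:212740578-212740614, plus strand). Intronic here means only within the ATF3 gene and outside its canonical exons, as exons of its other transcripts were not examined.
JUN distal: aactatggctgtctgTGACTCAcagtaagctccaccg
BATF3 distal: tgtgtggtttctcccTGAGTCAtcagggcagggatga
ATF3 intronic: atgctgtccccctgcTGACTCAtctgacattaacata
The JUN site peak (chr1:59220996-59221492) had a −log10 q of 2.53, the BATF3 site peak (chr1:212844974-212845342) of 1.84 and the ATF3 site peak (chr1:212740256-212740785) of 1.35, near the lowest value of the list, and with 1 list per group it cannot be told apart whether such weak calls follow the group or the library.

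Genes around AP-1 in its pathway were described in the same way. Of 38 other bZIP genes, 34 had a promoter peak in each list, and those without one included ATF6, ATF6B and BATF2. Of 37 genes of the signalling that leads to AP-1 (from RAS proteins through the MAP kinases to the ternary complex factors), 36 had one, all but MAPK13. Of 32 other immediate early genes 29 had one, all but PTGS2, EGR4 and IER3, and of 17 genes known as AP-1 targets 10 had one, with CXCL8, SPP1, CCND1, MMP1, MMP3, MMP13 and MMP9 lacking it. None of these genes had a promoter peak in 1 list only, beside 2.79% of all coding genes. The AP-1 genes, at 80%, lay between the signalling genes at 97.3% and the AP-1 targets at 58.8%. Over all coding genes the share was 61.1% in siControl and 60.7% in siAATF, so the AP-1 targets were near it. Their median rank by −log10 q, 51.1 in siControl and 58.5 in siAATF, lay below that of the other bZIP genes (63.8 and 62.5) and of the other immediate early genes (61.8 and 67.1), and above that of the AP-1 targets (41.8 and 47.5). Over all coding genes with a promoter peak this median was 65.2 and 66.2.

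**Figure D5:**
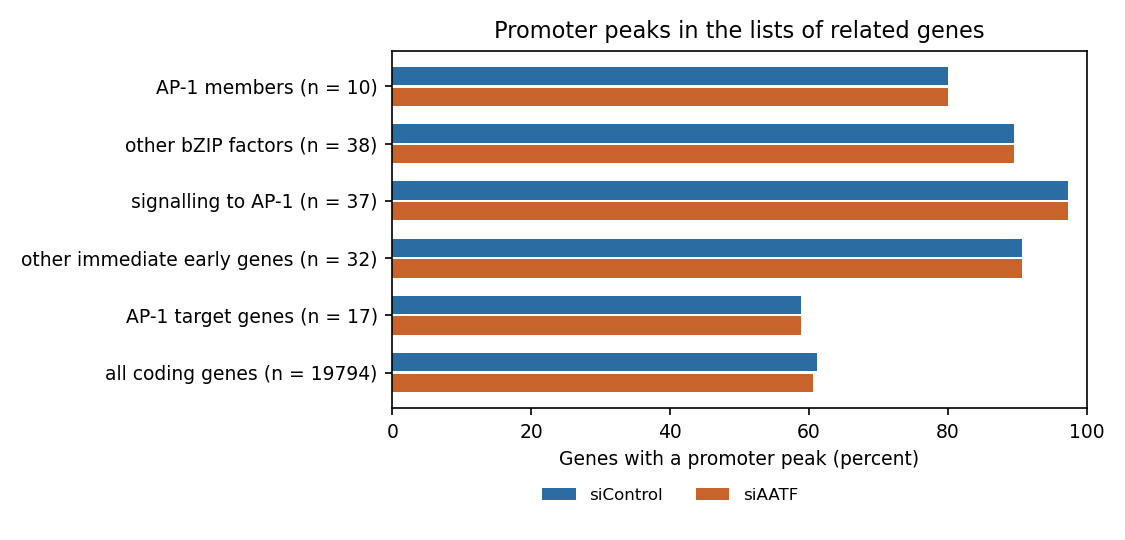
Share of genes with an NRF-1 promoter peak, in percent, in the siControl and siAATF lists for the 10 AP-1 genes, 4 lists of related genes and all coding genes. Both bars are equal for each list of genes and nearly so for all coding genes (61.1% and 60.7%), and the AP-1 genes reach 80%.

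The median rank change by fold enrichment was 4.09 points in the other immediate early genes, 2.34 in the other bZIP genes, 0.0149 in the signalling genes and −2.60 in the AP-1 targets, beside 4.25 in the AP-1 genes. The largest changes among the other immediate early genes were those of DUSP4 (40.6 points), a MAP kinase phosphatase, ARC (39.1) and CCN2 (−26.4). Among the other bZIP genes they were those of ATF7 (25.3), CREB1 (21.3) and NFE2L3 (−18.0), among the signalling genes they included RPS6KA3 (−17.0) and MAP2K1 (−13.2), and among the AP-1 targets VIM (14.2), FN1 (10.8) and MMP14 (8.45). JUND and JUN, at 30.7 and 25.3 points, were thus exceeded by 2 and by 3 of the related genes in size.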

How the data were processed

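NRF-1 chromatin immunoprecipitation followed by sequencing (ChIPmentation, paired-end) was analysed for 1 siControl and 1 siAATF sample of U251 cells. Per the labels and the methods of the study, reads were aligned to hg19 with Bowtie2, and broad peaks were called with MACS2 in a Nextflow workflow for ATAC-seq at default settings. Such a workflow can shift reads towards the cut of the transposase, which would move peak edges. No input or IgG library was named, and whether the duplicates that the methods mention were pooled was not stated. The fold enrichment of each peak is a ratio over local background deposited by the authors, and the −log10 p and −log10 q are MACS2 values deposited by the authors. Start and end positions were deposited too. The display score deposited by the authors and the −log10 p were not used further. The files hold no counts or depths, so depth was unknown and no interval was given. The analysis used Python 3.11.15, numpy 2.4.6 and pandas 2.3.3, and the overlap and word searches were tested on simulated data. Coding transcripts came from GENCODE release 44 lifted to hg19, and sequence from the GRCh37 assembly. Peaks of the lists with 1 or more bases in common were called shared. A gene with several promoter peaks was described by the one with the highest −log10 q. Peaks off the main chromosomes, 132 in siControl and 122 in siAATF, were kept for ranks and left out of sequence work.

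The members, the related gene lists and the words were chosen with earlier results of these data known. All 10 members were named, and in the related lists the genes without a promoter peak in either list, or with one in 1 list only, and the 3 with the largest rank change. A few named genes and sequences that these rules would give are not reported here. Owners of nearby promoter peaks were named where a sentence turns on them. The CArG box allows A or T at its middle bases and was searched as such.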

Additional observations from a re-analysis of the deposited data

How the results depend on the processing

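No paired analysis was possible because each group had 1 list. Of 86 values recomputed for 19 results under 11 alternatives and 1 added after the data had been seen, 57 stayed within the limits used (a factor of 1.5 for a number, the exact 95% binomial interval of the value given for a share, and the value to 2 decimals for a rank change), 28 moved and 1 large rank change reversed. For shares of so few peaks that interval is wide. The reversal was the rank change of JUND, −29.5 points for the promoter peak nearest the canonical start, the added alternative, under which the median over the 8 genes was 0.766. This follows from the choice of peak. The small rank changes of FOSB and FOSL2 also turned positive, FOSB to 0.0966 ranked by −log10 q, and FOSL2 to 0.00172 at the stricter threshold and to 1.94 with 2 kb promoters, which take in its upstream peak. With a minimum −log10 q of 5 in both lists the median rank change was 9.37 points, the nearby peaks numbered 38 in each list, and 97.4% of those in siAATF were shared. With 2 kb promoters, which add JUNB, the median was 1.94, and ranked by −log10 q it was 1.40. Within 25 kb there were 33 siControl and 39 siAATF peaks and 100% of those in siControl were shared, and within 100 kb there were 71 siControl and 81 siAATF peaks. The exact NRF-1 core was in a promoter peak of 1 gene in each list, beside 3.48% and 3.49% of all coding promoter peaks. A core with up to 1 mismatch no more than 100 bp from the midpoint was there for 1 gene in siControl and 2 in siAATF, beside 15.3% and 15.5%. With a reciprocal overlap of 50%, the shared promoter peaks fell from 100% to 75% in siControl and to 66.7% in siAATF, as FOS and JUND were lost. Other causes were not tested. The number with a promoter peak was 7 to 9 of 10 genes under each window and threshold tried. With 1 list per group and unknown depth, a peak that is missing may be one that was not detectable.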
